A study of Mus musculus with 8 samples.

Results

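The ErbB receptors and the growth factor receptor-bound adaptors around them were examined in day 6 primordial germ cell-like cells (d6PGCLCs) and in primordial germ cells (PGCs) of the embryo. The members are 7 of the 21950 genes counted, namely the receptors *Egfr*, *Erbb2*, *Erbb3* and *Erbb4*, the adaptors *Grb7* and *Grb14* of the Grb7 family, and the general adaptor *Grb2*. All 7 were found in the table by their Entrez identifiers, and 6 of them had more than 3 counts in at least 1 library. They were chosen because *Grb7* had one of the largest increases in d6PGCLCs in the very libraries described here, so their differences between the groups are given as a description. No p-value is given for them, and whether a member passed the threshold applied to all genes is stated for completeness and supports nothing.

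The d6PGCLC group consisted of 4 pools made from a female mouse BVSC-iPSC line, a single induced pluripotent stem cell line derived from adult tail tip fibroblasts that carries the Blimp1-Venus and Stella-ECFP reporters. These cells were taken at day 8 of culture, 6 days after the start of differentiation from epiblast-like cells. They were sorted as for the start of the oocyte culture, for which the paper gives either both reporters or SSEA1 and integrin β3. The PGC group consisted of 4 pools from female gonads of inbred C57BL/6J fetuses at E12.5, and these cells were sorted as positive for SSEA1 and integrin β3. Replicates of both groups came from independent experiments, and 1 stranded poly(A) RNA library was sequenced for each. The groups therefore differed in origin, reporters, developmental stage and possibly sorting markers at once, and the parts of these in any difference cannot be told apart. The medium in which PGCLCs formed contained EGF, together with BMP4, SCF and LIF, so the cultured cells met an added ErbB ligand that the PGCs did not receive by this route.

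ErbB receptors are receptor tyrosine kinases that pair with each other when a ligand of the EGF or neuregulin family binds. *Egfr* encodes the EGF receptor, *Erbb2* a receptor without a known ligand of its own that serves as a partner, and *Erbb3* and *Erbb4* encode neuregulin receptors. ErbB3 is known for a kinase domain with little activity of its own, so that it depends on a partner receptor to become phosphorylated. Phosphorylated tails then recruit adaptors by their SH2 domains, among them Grb2, which links receptors to RAS through SOS, and Grb7 and Grb14, which carry a pleckstrin homology domain besides the SH2 domain and are linked to cell migration and to insulin signalling, respectively. In germ cell biology the receptor tyrosine kinase best known is Kit, the receptor of SCF, which PGCs need to survive and migrate.

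The receptors share a kinase domain but ErbB3 differs at a residue that active kinases need, and the stretch around it is shown because the receptor with most RNA in these cells was *Erbb3*. Each sequence is 45 bases of the coding strand in exon 20, read 5′ to 3′ from the GENCODE M21 transcripts of GRCm38. The capitals mark the codon for the residue of the αC-helix that pairs with the catalytic lysine in active kinases, which is glutamate in EGFR, ErbB2 and ErbB4 and histidine in ErbB3.
Egfr: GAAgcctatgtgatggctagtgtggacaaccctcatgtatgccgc
Erbb2: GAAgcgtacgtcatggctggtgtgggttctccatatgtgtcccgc
Erbb3: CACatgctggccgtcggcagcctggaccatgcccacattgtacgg
Erbb4: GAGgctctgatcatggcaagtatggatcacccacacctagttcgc

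The *Egfr* stretch lies at chr11:16896894-16896938 on the plus strand and begins at codon 764. The *Erbb2* stretch lies at chr11:98433892-98433936 on the plus strand and begins at codon 771. The *Erbb3* stretch lies at chr10:128572900-128572944 on the minus strand and begins at codon 757. The *Erbb4* stretch lies at chr1:68198983-68199027 on the minus strand and begins at codon 768. Counted from 1 at the first capital, the *Erbb3* codon carries G1C and A3C relative to *Egfr* and *Erbb2*, and G1C and G3C relative to *Erbb4*. Over the 45 bases, *Egfr* shared 32 with *Erbb2*, *Erbb4* shared 25 and *Erbb3* shared 16. These are sequences of the reference genome, and the processed counts do not show which exons of a receptor were read.

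The d6PGCLC libraries held between 8054596 and 12024841 counted reads and the PGC libraries between 7991437 and 11166023. Levels between groups are given in CPM, which are counts relative to the TMM-scaled size of each library, and levels between genes in RPKM, which divide the CPM by the counted exonic length in kilobases. A library was taken to show a gene only above 3 counts, equal to between 0.249 and 0.383 CPM, and this limit covers counting error only. All gene-wise tests used edgeR's quasi-likelihood test over the 21950 genes, and a gene was called at a p of at most 0.05 after Benjamini-Hochberg adjustment. Fold changes are d6PGCLC over PGC. The defining germ cell markers were present in every library, with summed levels of 3730 to 4320 CPM in d6PGCLCs and 4400 to 4920 CPM in PGCs over 9 genes. Of these 9, *Dppa3*, *Prdm1*, *Tfap2c* and *Pou5f1* were higher and *Ddx4*, *Dazl* and *Dnd1* lower in d6PGCLCs. Among the PGC libraries, replicate 4 held 97 counts on Y-linked genes although it was labelled as female, whereas the other 7 libraries held 0. PGC replicate 2 had 325 CPM of the heat shock genes *Hspa1a* and *Hspa1b* against 10.8 to 43.5 CPM in the other PGC libraries. The d6PGCLC libraries were lower than every PGC library, at 1.82 to 2.43 CPM of these genes. The part of this in the differences between the groups was not tested. For *Grb7*, *Erbb3*, *Erbb2*, *Egfr* and *Grb2*, values without PGC replicate 2 or 4 or the range over libraries dropped singly are given. For most other genes no such value is given, and some of their fold changes also moved without these libraries.

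Of the 7 members, 2 (*Grb7* and *Erbb3*) were called higher in d6PGCLCs, where 16.1% of all genes were, and 1 (*Grb14*) was called lower, where 15.4% of all genes were. With a log2 fold change of at least 2 required as well, *Grb7* alone of the 7 was higher, and 3.24% of all genes met that criterion. No more is read from these counts, because the same contrast chose the members. The median log2 fold change of the 11487 genes with a mean above 1 CPM was 0.01, as the TMM scaling sets it near 0. In bulk pools, fewer cells that express a gene and less RNA of it per cell cannot be told apart.

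**Figure D1:**
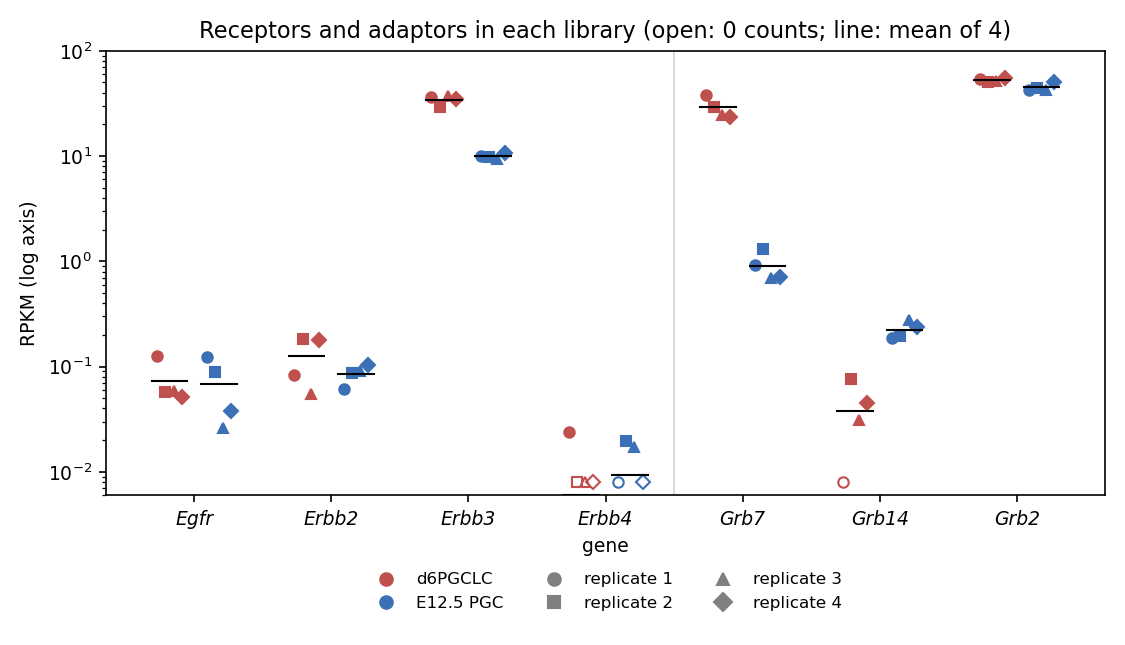
RPKM of the 7 members in each of the 8 libraries, on a log axis, with colours for the groups, symbols for the replicates, a black line for the mean of 4 libraries and open symbols at the bottom for libraries with 0 counts. *Erbb3*, *Grb7* and *Grb2* lie above 20 RPKM in the d6PGCLC libraries, *Egfr*, *Erbb2* and *Erbb4* lie below 0.2 RPKM in all libraries, and *Grb7* is the member with the widest gap between the groups.

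Among the receptors, *Erbb3* was the one with substantial RNA in both cell types, and it was 3.43-fold higher in d6PGCLCs. *Erbb3* (Entrez 13867) lies on chromosome 10 at 128567523 to 128589635, minus strand, and its counted exons summed to 5140 bp. It had 1461, 1488, 2307 and 1472 counts in d6PGCLC replicates 1 to 4 and 417, 479, 524 and 614 counts in the PGC replicates. In CPM these were 186, 151, 191 and 178 in d6PGCLCs against 52.0, 50.4, 48.3 and 55.4 in PGCs. The lowest d6PGCLC library thus stood well above the highest PGC library, and the groups did not overlap. The means were 177 ± 17.8 and 51.5 ± 3.0 CPM (SD, n = 4), a log2 fold change of 1.78 with a standard error (SE) of 0.10, with a range of 1.74 to 1.84 when single libraries were dropped. Per length, *Erbb3* reached 34.4 ± 3.46 RPKM in d6PGCLCs and between 9.40 and 10.8 RPKM in PGCs, and the mean levels exceeded those of 87.6% and 72.9% of the genes in the table.

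*Erbb2*, the usual partner of ErbB3, was close to the limit of detection in both groups. *Erbb2* (Entrez 13866) lies on chromosome 11 at 98412484 to 98437716, plus strand, with 6078 bp of counted exons. The d6PGCLC replicates had 4, 11, 4 and 9 counts and the PGC replicates 3, 5, 6 and 7. The groups overlapped, and the d6PGCLC replicates were split between libraries as low as the PGCs and libraries above them. The means were 0.763 ± 0.402 and 0.521 ± 0.108 CPM, a log2 fold change of 0.50 with a standard error of 0.53. This log2 fold change ranged from 0.22 to 0.78 when single libraries were dropped. Summed over the libraries of a group, the level was 0.738 CPM (95% exact Poisson interval 0.49 to 1.07) in d6PGCLCs and 0.532 CPM (0.33 to 0.814) in PGCs, where the intervals cover counting error only. A difference in *Erbb2* was not detectable at this depth.

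*Egfr*, the receptor of the EGF in the medium, was as scarce. *Egfr* (Entrez 13649) lies on chromosome 11 at 16752203 to 16913907, plus strand, and 7085 bp of exons were counted. It had 7, 4, 5 and 3 counts in the d6PGCLC replicates and 7, 6, 2 and 3 counts in the PGC replicates, so that the highest library of each group had the same count. Mean levels were 0.52 ± 0.25 CPM and 0.49 ± 0.321 CPM. The log2 fold change of 0.11 had a standard error of 0.61, and it took either sign when single libraries were dropped (from -0.23 to 0.51). Over the pooled libraries, *Egfr* stood at 0.501 CPM (0.301 to 0.782) in d6PGCLCs and 0.456 CPM (0.27 to 0.721) in PGCs. No difference between the groups was detectable at this depth.

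*Erbb4*, the remaining neuregulin receptor, was not detected. *Erbb4* (Entrez 13869) lies on chromosome 1 at 68031884 to 69108576, minus strand, and 5337 bp of exons were counted. A single count was found in d6PGCLC replicate 1 and in PGC replicates 2 and 3, and 0 counts in the other 5 libraries. No fold change is given for it.

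Per length, *Erbb3* therefore made up nearly all receptor RNA of the family in every library. It held 99.4%, 99.2%, 99.7% and 99.3% of the summed receptor RPKM in d6PGCLC replicates 1 to 4 and 98.2%, 98.0%, 98.6% and 98.7% in the PGC replicates. *Egfr*, *Erbb2* and *Erbb4* together had 9 to 15 counts in a d6PGCLC library and 9 to 12 in a PGC library. The ratio of *Erbb3* to *Erbb2* in RPKM ran from 160 to 682 in d6PGCLCs and from 103 to 164 in PGCs, and its denominator rested on between 3 and 11 counts. In order of mean RPKM the receptors stood as *Erbb3*, *Erbb2*, *Egfr* and *Erbb4* in both groups, but *Erbb2* and *Egfr* did not differ beyond the spread of their replicates.

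Of the adaptors, *Grb7* had the largest difference, with 89.4 ± 20.5 CPM in d6PGCLCs and 2.79 ± 0.876 CPM in PGCs. *Grb7* (Entrez 14786) lies on chromosome 11 at 98446834 to 98455373, plus strand, with 3082 bp of counted exons. It had 923, 891, 922 and 598 counts in the d6PGCLC replicates and 23, 38, 23 and 24 counts in the PGC replicates. In CPM these were 118, 90.7, 76.5 and 72.5 in d6PGCLCs and 2.87, 4.00, 2.12 and 2.17 in PGCs. Every d6PGCLC library was far above every PGC library, while all PGC libraries were above the limit of detection. The log2 fold change was 5.01 with a standard error of 0.21, a 32.3-fold higher level. It was 4.90 without PGC replicate 4, 5.24 without PGC replicate 2, and 4.85 without d6PGCLC replicate 1, the lowest and the highest of these being the ends of the range over the 8 libraries dropped singly. Per length *Grb7* moved from 0.905 ± 0.284 RPKM in PGCs, above 52.4% of the genes of the table, to 29.0 ± 6.65 RPKM in d6PGCLCs, above 85.6% of them.

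*Grb2*, which couples activated receptors to RAS, was abundant and differed little. *Grb2* (Entrez 14784) lies on chromosome 11 at 115644045 to 115708597, minus strand, with 2742 bp of counted exons. Its level was 147, 139, 142 and 150 CPM in the d6PGCLC replicates and 116, 121, 116 and 140 CPM in the PGC replicates. The groups overlapped only through PGC replicate 4, which was above d6PGCLC replicate 2. The means were 144 ± 4.93 and 123 ± 11.3 CPM, a log2 fold change of 0.23 with a standard error of 0.09. *Grb2* was not among the genes called. Without PGC replicate 4, the library with the Y-linked counts, its log2 fold change was 0.29 and it was among them. With all libraries kept, it was also called with DESeq2, with filters on low counts and with a replicate term. On the RPKM scale it was the most abundant member in both groups, at 52.6 ± 1.8 in d6PGCLCs and 44.9 ± 4.13 in PGCs.

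*Grb14*, which is linked to insulin signalling, was scarce in both groups, with fewer counts in d6PGCLCs. *Grb14* (Entrez 50915) lies on chromosome 2 at 64912476 to 65022766, minus strand, and 2667 bp of exons were counted. It had 0, 2, 1 and 1 counts in the d6PGCLC replicates and 4, 5, 8 and 7 counts in the PGC replicates. The groups did not overlap, but every d6PGCLC library was at or below 3 counts. Set against that limit, which averaged 0.325 CPM, the PGC level of 0.599 ± 0.109 CPM makes *Grb14* at least 1.84-fold lower in d6PGCLCs. With a filter on low counts *Grb14* was not tested.

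*Grb10*, the third gene of the Grb7 family, is an imprinted gene and is named here after its values were seen. It was counted over 906 bp only. Its counts were 40, 28, 13 and 12 in the d6PGCLC replicates and 6, 6, 4 and 1 in the PGC replicates. The means of 2.62 ± 1.82 and 0.46 ± 0.293 CPM gave a log2 fold change of 2.52 (SE 0.59), with no overlap between the groups. This log2 fold change ranged from 1.99 to 2.82 when single libraries were dropped. No p-value is given for *Grb10*, because it was picked by its values. Of the 3 family genes, *Grb7* and *Grb10* were thus higher and *Grb14* lower in d6PGCLCs. Only *Grb7*, in d6PGCLCs, averaged more than 3 CPM. That scale takes no account of counted length, 906 bp for *Grb10* and 3082 bp for *Grb7*, so it does not rank the genes.

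*Grb7* was also higher in relation to *Grb2* and *Erbb3* in each d6PGCLC library. The RPKM ratio of *Grb7* to *Grb2* was 0.715, 0.582, 0.481 and 0.431 in the d6PGCLC replicates and between 0.0138 and 0.0295 in PGCs. The RPKM ratio of *Grb7* to *Erbb3* was 1.05, 0.999, 0.667 and 0.678 in d6PGCLCs and between 0.0652 and 0.132 in PGCs. In d6PGCLCs the adaptor and the receptor thus had RNA of the same order per length, and in PGCs the adaptor had far less than the receptor. Within the d6PGCLCs the libraries with most *Grb7* were not those with most *Erbb3*, since replicate 1 was first for *Grb7* and replicate 3 was first for *Erbb3*.

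**Figure D2:**
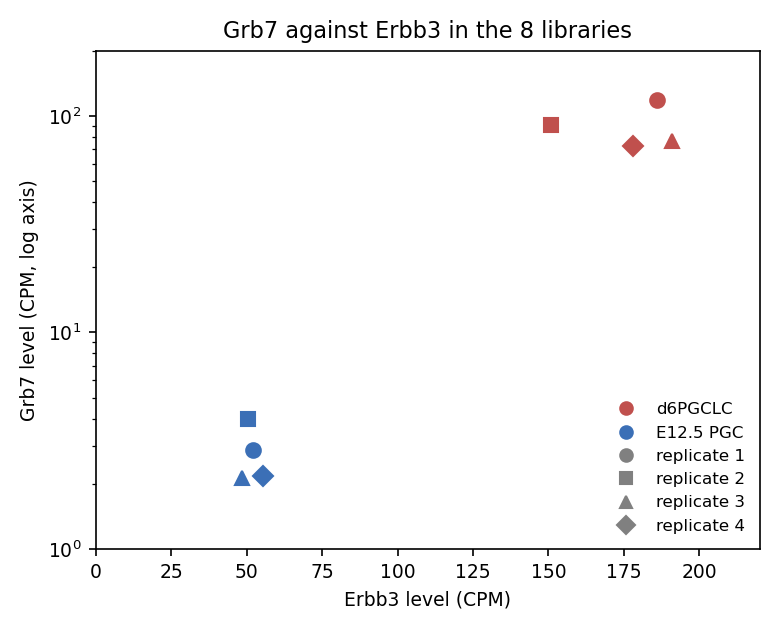
*Grb7* level (CPM, log axis) against *Erbb3* level (CPM, linear axis), 1 point per library, with colours for the groups and symbols for the replicates. The d6PGCLC libraries lie between 151 and 191 CPM of *Erbb3* and 72.5 and 118 CPM of *Grb7*, apart from the PGC libraries at 48.3 to 55.4 and 2.12 to 4.00 CPM.

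RNA of other cell types was low in these sorted pools. The 11 gonadal somatic markers summed to between 0.747 and 13.1 CPM in d6PGCLC libraries and between 3.07 and 7.16 CPM in PGC libraries, and 9 of the 11 were at or below 3 counts in every d6PGCLC library, *Wt1*, *Nr5a1* and *Gata4* among them, while 2 of the 11 were so low in every PGC library. Of the 11, 5 were called lower in d6PGCLCs and 1 higher, *Col1a1*, a collagen gene of mesenchymal cells, at 4.16 ± 5.31 against 0.205 ± 0.149 CPM. The 4 endothelial markers summed to between 6.76 and 16.7 CPM and between 3.69 and 7.79 CPM, respectively, nearly all of it *Cdh5*, which was called higher at 10.97 ± 4.13 against 4.19 ± 1.16 CPM, with *Kdr* and *Emcn* at or below 3 counts in every d6PGCLC library. The 3 blood markers summed to at most 1.12 CPM in d6PGCLCs and 1.90 CPM in PGCs, and 1 was called lower. The 5 markers of embryoid body mesoderm or endoderm summed to between 1.24 and 1.66 CPM in d6PGCLCs and 9.84 and 14.3 CPM in PGCs, and all 5 were called lower. The part of such RNA in the *Grb7* difference was not tested.

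*Erbb2* and *Grb7* are neighbours on chromosome 11, with 9118 bp from the end of *Erbb2* to the start of *Grb7*, and both lie on the plus strand, so the genes around them were examined (GRCm38, RefSeq coordinates 98348406 to 98638801). On the side of *Erbb2*, *Pgap3*, which acts on GPI anchors, was higher in d6PGCLCs at 4.40 ± 1.12 against 2.18 ± 0.448 CPM (log2 fold change 1.03, edgeR adjusted p = 0.00609). *Ppp1r1b*, *1700003D09Rik* and *Pnmt* had at most 3 counts in every library. *Mien1*, between *Erbb2* and *Grb7*, was at 32.1 ± 5.73 and 27.9 ± 3.2 CPM (log2 fold change 0.21, edgeR adjusted p = 0.345). On the other side, *Ormdl3*, a regulator of sphingolipid synthesis, was at 35.6 ± 6.83 and 41.3 ± 1.63 CPM (log2 fold change -0.22, edgeR adjusted p = 0.275), and *Ikzf3*, *Zpbp2*, *Lrrc3c* and *Gsdma3* had at most 1 count in any library. *Stard3* and *Tcap*, of the same interval, were not analysed here. The RefSeq span of *Mien1* runs through *Grb7*, from 98437708 to 98458230, whereas its GENCODE span ends at 98438991, on the minus strand. Whether the counting used strand is not stated, so reads of the pair could be shared, and the part of this in the *Grb7* values was not tested.

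**Figure D3:**
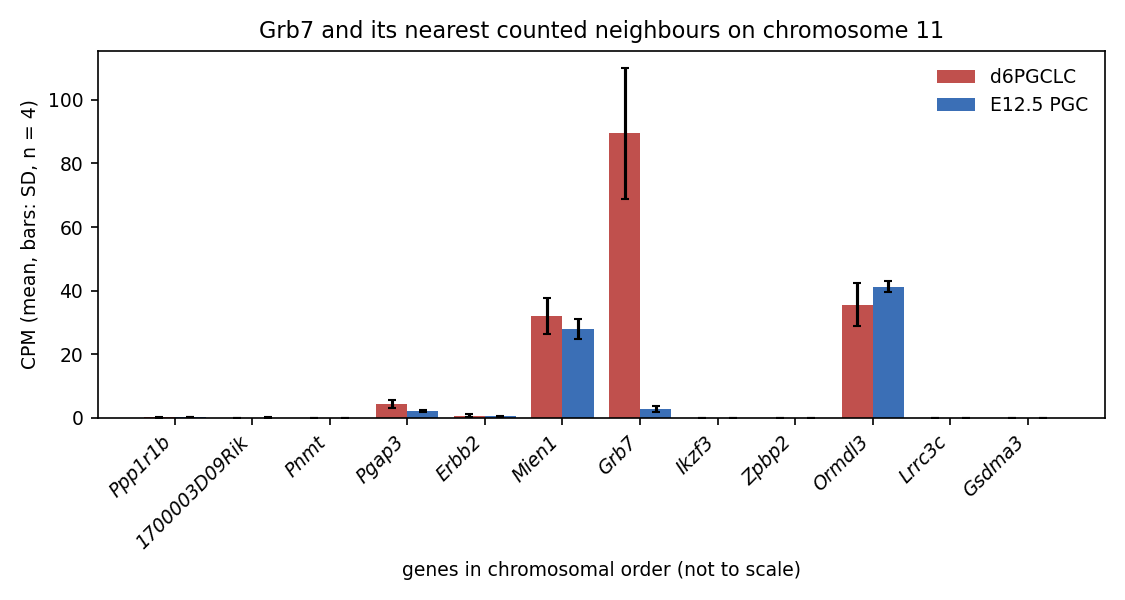
Mean CPM (bars, with SD over 4 libraries) of *Grb7* and its nearest counted neighbours in their order on chromosome 11, for d6PGCLCs and PGCs. *Grb7* stands at 89.4 CPM in d6PGCLCs and 2.79 CPM in PGCs, while *Mien1* is at 32.1 and 27.9 CPM, *Ormdl3* at 35.6 and 41.3 CPM, and most other genes near 0.

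The other genes of the pathway were taken from a list of 61 genes by role, of which 58 were analysed and 5 had at most 3 counts in every library. In d6PGCLCs 9 of the 58 were higher (15.5%) and 19 lower (32.8%), where 16.1% and 15.4% of all genes were. Low genes make up much of the table. Among genes with a mean above 1 CPM, 9 of 48 pathway genes were higher (18.8%) and 16 lower (33.3%), where 28.1% and 25.6% of all such genes were. The median log2 fold change of the 48 was 0.03, against 0.01 for all genes above 1 CPM. *Map2k2*, *Errfi1* and *Socs4* were not analysed here.

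**Figure D4:**
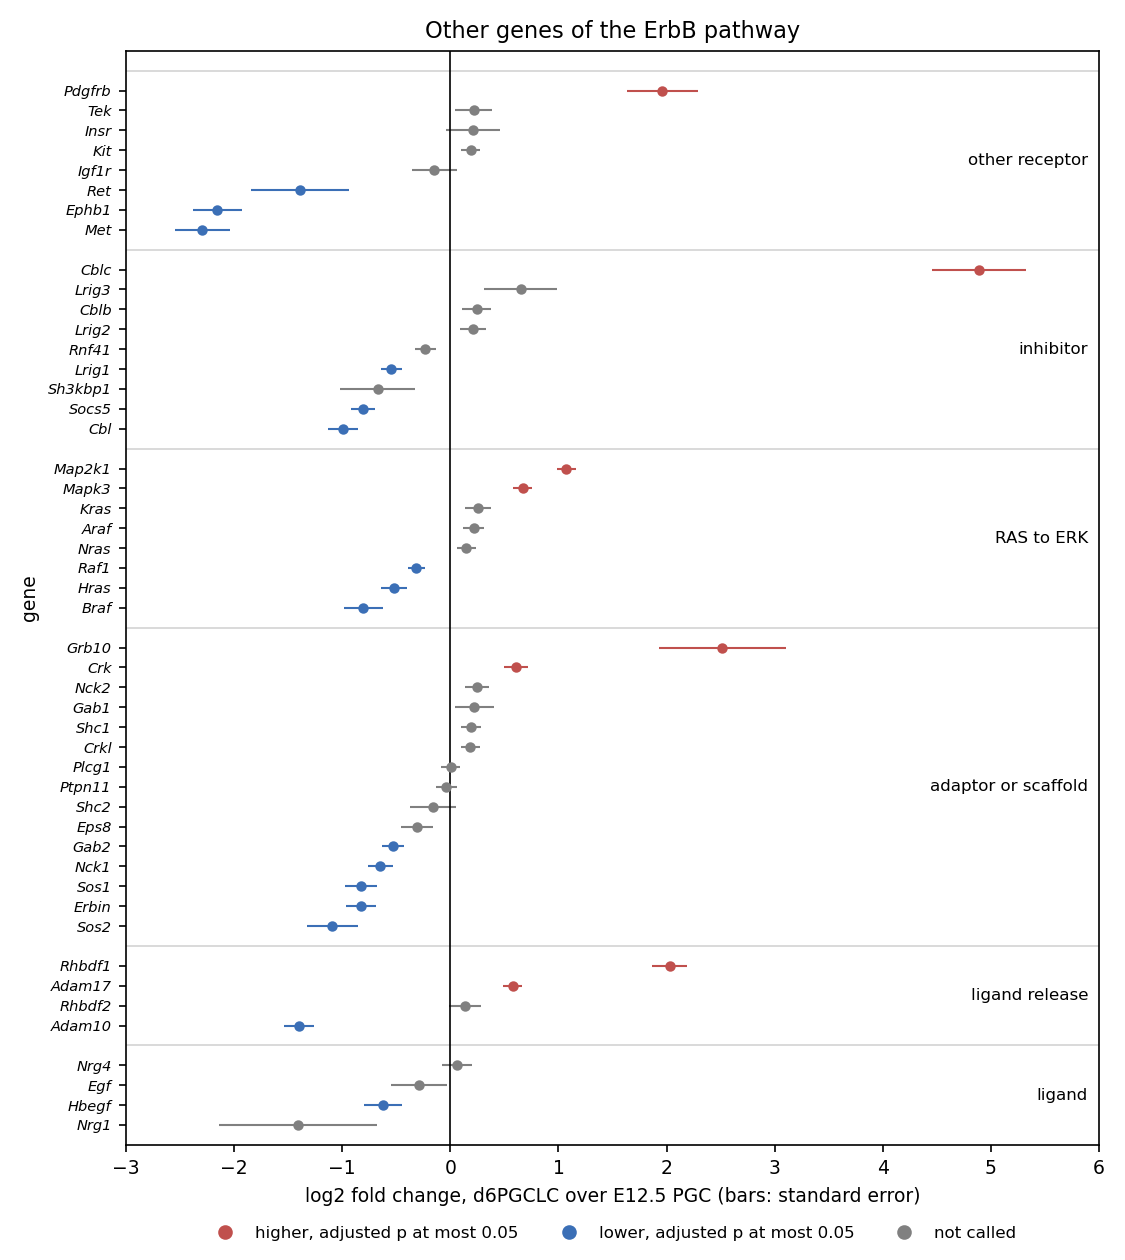
Log2 fold change (d6PGCLC over E12.5 PGC, n = 4 each) with its standard error for 48 detected genes of the pathway list, grouped by role, with colours for genes called higher, called lower or not called. *Cblc* (4.89) lies farthest to the right, followed by *Grb10* (2.52), *Rhbdf1* (2.03) and *Pdgfrb* (1.96), and *Met* (-2.30) and *Ephb1* (-2.16) lie farthest to the left, and 4 detected genes with almost no counts in d6PGCLCs (*Areg*, *Ereg*, *Nrg3* and *Shc4*) and 1 further detected gene are not drawn.

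None of the 11 ligand genes was called higher in d6PGCLCs by edgeR's quasi-likelihood test, 0 were higher at an unadjusted p under 0.05 and 0 with DESeq2, while *Areg*, *Ereg* and *Hbegf* were called lower. The ligand with the highest CPM was *Nrg4*, a neuregulin that binds ErbB4, whose level was 22.7 ± 1.9 CPM in d6PGCLCs and 21.7 ± 1.98 CPM in PGCs (log2 fold change 0.06, adjusted p = 0.962). *Hbegf*, the heparin-binding ligand of EGFR and ErbB4, had 90, 90, 126 and 100 counts in the d6PGCLC replicates and 136, 191, 179 and 144 counts in the PGC replicates, or 10.8 ± 1.29 and 16.6 ± 2.91 CPM. The groups did not overlap on the CPM scale, and *Hbegf* fell by 0.62 on the log2 scale (SE 0.17, edgeR adjusted p = 0.00706). *Egf* itself was at 3.83 ± 0.671 and 4.65 ± 1.41 CPM (edgeR adjusted p = 0.52). *Areg*, the amphiregulin gene, had 0, 0, 0 and 1 counts in d6PGCLCs and 5, 19, 13 and 9 in PGCs (edgeR adjusted p = 8.48e-05). Its mean PGC level of 1.16 ± 0.609 CPM was 3.56-fold above the limit of 3 counts in d6PGCLCs, with no allowance for error in that level. *Ereg* had 0 counts in every d6PGCLC library and 0, 2, 4 and 2 in the PGC libraries, and its call was lost when any library except PGC replicate 1 was dropped (edgeR adjusted p between 0.0636 and 0.141).

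The ligands of ErbB3, *Nrg1* and *Nrg2*, were near or below the limit. *Nrg1* had 1, 2, 1 and 3 counts in d6PGCLCs and 7, 5, 5 and 3 in PGCs (edgeR adjusted p = 0.135). *Nrg2* had 1 count in all, over 436 bp of counted exons. *Nrg3* had 4 counts in PGC replicate 4 and 0 elsewhere, and *Tgfa*, *Epgn* and *Btc* had at most 3 counts in any library. The RNA of the one abundant receptor was thus not accompanied, in these sorted cells, by more than 7 counts per library for any of its neuregulin ligands.

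Of the 4 genes for the release of membrane-bound ligands, *Rhbdf1* and *Adam17* were higher and *Adam10* was lower. *Rhbdf1*, which encodes the iRhom1 protein that brings ADAM17 to the surface, averaged 30.3 ± 4.42 CPM in d6PGCLCs and 7.43 ± 0.938 CPM in PGCs (log2 fold change 2.03, SE 0.16, edgeR adjusted p = 2.82e-09). *Adam17*, the main protease that sheds EGFR ligands, averaged 214 ± 17.6 and 144 ± 6.31 CPM, with a log2 fold change of 0.58. *Adam10*, a related sheddase, fell by 1.40 on the log2 scale, from 70.4 ± 13.9 to 26.7 ± 3.06 CPM (edgeR adjusted p = 6.44e-08). All 3 calls held when any 1 library was dropped.

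Among 17 adaptors and scaffolds besides the members, 2 were higher, 6 lower and 1 not detected. *Sos1* and *Sos2*, the exchange factors that Grb2 carries to RAS, were both lower, with *Sos1* at 53.1 ± 10.9 against 94.2 ± 20.7 CPM (log2 fold change -0.83) and *Sos2* at 5.18 ± 1.15 against 11.1 ± 3.67 CPM (log2 fold change -1.09). *Erbin*, a scaffold named for its binding to ErbB2, averaged 24.1 ± 4.64 CPM in d6PGCLCs and 42.7 ± 3.04 CPM in PGCs, a log2 fold change of -0.83 (SE 0.14, edgeR adjusted p = 6.07e-05). *Nck1*, an adaptor to the actin cytoskeleton, fell by 0.65 on the log2 scale. The signalling partners *Shc1*, *Ptpn11* and *Plcg1* were not called, and their log2 fold changes were 0.19, -0.04 and 0.00.

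Genes on the way from RAS to ERK moved in both directions, with 3 of 9 higher and 3 lower. *Map2k1*, which encodes the kinase MEK1, was at 421, 416, 374 and 378 CPM in the d6PGCLC replicates and at 180, 188, 188 and 199 CPM in the PGC replicates. The groups were far apart, with a log2 fold change of 1.07 (SE 0.08, edgeR adjusted p = 1.99e-09). *Mapk3*, which encodes ERK1, averaged 404 ± 25.6 and 254 ± 16.3 CPM, with a log2 fold change of 0.67. *Braf* (log2 fold change -0.80, with overlap between the groups) and *Hras* (-0.52) were the lower genes with the largest differences.

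Among 9 inhibitors of receptor signalling, *Cblc* was higher and 3 were lower. *Cblc* encodes an epithelial member of the Cbl family of ubiquitin ligases, which tag active receptors for degradation, and its counts were 139, 144, 156 and 88 in the d6PGCLC replicates and 3, 10, 1 and 4 in the PGC replicates. Its level ran from 10.7 to 17.7 CPM in d6PGCLCs and from 0.0922 to 1.05 CPM in PGCs, which gave a log2 fold change of 4.89 (SE 0.43, edgeR adjusted p = 5.07e-10), and the log2 fold change ranged from 4.52 to 5.64 when single libraries were dropped, the highest being without PGC replicate 2. *Cbl*, the broadly expressed member of that family, went the other way, from 129 ± 21.3 CPM in PGCs to 64.8 ± 14.8 CPM in d6PGCLCs (log2 fold change -0.99, edgeR adjusted p = 7.66e-06). *Cblb* was not called, at 56.8 ± 11.4 and 47.9 ± 5.68 CPM. *Socs5* and *Lrig1*, which lower ErbB receptor levels, fell by 0.81 and 0.55 on the log2 scale.

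Of 8 other receptors that are known to bind Grb7 family adaptors, *Pdgfrb* was higher and *Met*, *Ephb1* and *Ret* were lower. *Kit* averaged 484 ± 25.5 CPM in d6PGCLCs and 424 ± 37.9 CPM in PGCs and was not called (log2 fold change 0.19, edgeR adjusted p = 0.113). *Met*, the receptor of hepatocyte growth factor, had 11.4, 7.53, 3.24 and 4.73 CPM in the d6PGCLC replicates and 38.8, 22.8, 35.2 and 32.6 CPM in the PGC replicates. All d6PGCLC libraries lay below all PGC libraries, with a log2 fold change of -2.30 (SE 0.26, edgeR adjusted p = 4.01e-07). *Ephb1*, a receptor of ephrin B ligands, was at 7.25 ± 3.41 against 32.6 ± 3.8 CPM, a log2 fold change of -2.16. *Pdgfrb*, also a marker of perivascular cells, was at 4.71 ± 1.47 against 1.18 ± 0.341 CPM, a log2 fold change of 1.96, and *Ret* lost its call without d6PGCLC replicate 3 or PGC replicate 3 (edgeR adjusted p = 0.0634 and 0.108).

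The genes whose level across the 8 libraries was most like that of *Grb7*, by Pearson's r of log2(CPM + 1) over genes averaging 100 counts or more, were *Got1* (0.998), *Gstm1* (0.997) and *Slc2a1* (0.997). They encode a cytosolic aspartate aminotransferase, a glutathione transferase and the glucose transporter GLUT1, and their log2 fold changes were 1.41, 1.57 and 1.76. For *Erbb3* they were *Dnm1* (0.998), *Pim1* (0.998) and *Tbc1d16* (0.997). A step between the groups that 2 genes share raises their r, and 845 of 8127 genes had an r above 0.95 with *Grb7* and 852 with *Erbb3*. For *Erbb2*, which had 3 to 11 counts, the highest were *Mettl5* (0.949), *Mrps31* (0.933) and *Ing2* (0.905), and none exceeded 0.95. The values are a description over 8 libraries that share their group structure.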

How the data were processed

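RNA-Seq counts of 4 d6PGCLC and 4 E12.5 PGC pools were used. The deposited values are unnormalized counts, made by the authors from reads with 1 genomic position, and the exonic length over which each gene was counted. Single-end reads had been aligned by STAR to GRCm38 plus the ERCC spike-in sequences. The authors then took a random UCSC isoform for each gene, removed at random genes that shared promoter sequence, and used QuasR to count exonic reads. The table does not name the isoform, so a gene can be under-counted where the cells express other exons, and RPKM inherit that. The strand setting is not stated.

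Of 21950 Entrez identifiers, 21907 had a RefSeq symbol. After TMM normalization, edgeR 4.0.16 was run in R 4.3.3 (glmQLFit, glmQLFTest, prior count 0.125, no filter), with cell type as the only term. Standard errors use the quasi-likelihood posterior variance. A group with at most 3 counts in every library was set at that floor. Sequences were read from the reference with Python 3.11.15. The steps were tested on simulated counts. Chi-square divided by its degrees of freedom was 3.19 to 20.8 for pairs of libraries within a group, so none was counted as a duplicate.

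The members and gene lists were chosen with earlier results of these data known. Named genes were all members, all ligands, per role up to 4 called genes by size of change among those with a mean of at least 20 counts, the 5 nearest counted genes on each side of *Grb7*, and the 3 genes most like *Grb7*, *Erbb2* and *Erbb3*. Others are given as counts or examples. As alternatives, DESeq2 1.42.0, edgeR's likelihood ratio test, other normalizations, filters on low counts, a prior count of 2, a replicate term, a stricter threshold and the omission of each library were tried. A single gene of the pathway list enters the counts but is not reported by name.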

Additional observations from a re-analysis of the deposited data

Results flagged for a closer look

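Within groups of 4 libraries, the gap of the highest or lowest library to its nearest neighbour was compared with the whole range, for 110 sets of CPM values of members and detected pathway genes with more than 3 counts in a library of the group. In 8 of them 1 library stood apart by Dixon's criterion at 95%, where chance gives about 1 in 20, or 5.5 sets. Most of the 8 were in d6PGCLC replicate 1, and sets that share a library are not independent, so the 2 numbers do not measure chance. Chi-square divided by its degrees of freedom was 16.2 to 20.8 between that library and the other d6PGCLC libraries, and 4.55 to 12.4 among the others. *Egfr* was at 0.893 CPM in d6PGCLC replicate 1 against 0.364 to 0.415 CPM in the other 3. In the same library *Sos1* was at 69.4 CPM against 46.5 to 49.0 CPM, *Sos2* at 6.89 CPM against 4.49 to 4.68 CPM, *Rhbdf2* at 65.0 CPM against 36.2 to 40.7 CPM and *Igf1r* at 38.2 CPM against 20.5 to 23.0 CPM, while *Crk* was lower there, at 115 CPM against 156 to 160 CPM. *Plcg1* was at 311 CPM in E12.5 PGC replicate 2, the library with the high heat shock genes, against 337 to 340 CPM in the other 3. *Nrg3* was at 0.361 CPM, on only 4 counts, in E12.5 PGC replicate 4, the library with Y-linked counts, and at 0 in the other 3.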

How the results depend on the processing

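Of 200 values recomputed under other settings, 195 moved little, which means a count of calls within 1.5 times its reported value or a log2 fold change within the spread between replicates. Over normalizations, prior count, DESeq2 and the block, the log2 fold change of *Grb7* was no lower than 4.92 and that of *Erbb3* lay between 1.74 and 1.78. The number of members called lower was 0 with CPM above 1 in at least 3 libraries, 0 with filterByExpr (these filters kept 3 members and left *Grb14* untested) and 0 at an adjusted p of at most 0.01. Members called higher were 3 in place of 2 with DESeq2, both filters, the replicate block and without E12.5 PGC replicate 4, each of which added *Grb2*. *Grb14* had a log2 fold change of -1.38 with a prior count of 2. No fold is given for *Erbb4*, whose groups had 1 and 2 counts in all. With libraries left out in turn, members called ranged from 2 to 3 higher and 1 to 1 lower, pathway genes from 8 to 10 higher and 17 to 19 lower, and all genes from 3093 to 3636 higher and 2885 to 3430 lower. Correlations of deviations from the group means were -0.01 to 0.253 for libraries of the same replicate number, above 0.1 for 1 of 4 pairs. For libraries of different numbers they were -0.161 to 0.095. For 2 of the 4 numbers the same-number pair was the highest both ways, so whether the numbers pair the samples was not settled. With the replicate block 11 pathway genes were higher and 18 lower, and 3708 of all genes were higher and 3562 lower. The depth leaves *Egfr*, *Erbb2*, *Erbb4* and most ligands without a detectable difference.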
